A study of Mus musculus with 14 samples.

Results

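The Ms4a genes described here are Ms4a7, Ms4a4a, Ms4a6d, Ms4a6c, Ms4a6b, Ms4a4c and Ms4a4b, 7 of the 55335 features and 7 of the 19 features with an Ms4a symbol in the count matrices. They were picked by symbol, with earlier results of these data known: Ms4a7 had already been reported as higher in SOD1G93A than in nTg microglia. That contrast is therefore given for the members as a description, without a test, and so are levels by cell class. Of the contrasts tested below, SOD1G93A/Clec7a-KO minus Clec7a-KO shares no library with that contrast. Libraries of all groups entered the same fit, so its filter, scaling and spread were estimated also from the SOD1G93A and nTg libraries. Each contrast of Clec7a loss shares a group, SOD1G93A or nTg, with SOD1G93A minus nTg and is not independent of that earlier result.

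Single-cell RNA sequencing (10x Chromium 3′ chemistry) was done on whole spinal cord from mice of age P115-120 days, in 14 libraries. SOD1G93A mice (3 libraries, strain B6SJL-Tg(SOD1*G93A)1Gur/J) carry a mutant human SOD1 transgene and are a model of amyotrophic lateral sclerosis. Clec7a-KO mice (4 libraries, strain B6.129S6-Clec7atm1Gdb/J) lack Clec7a, the gene of the myeloid receptor Dectin-1. SOD1G93A/Clec7a-KO mice (4 libraries) carry both alterations, and nTg mice (3 libraries) lack the transgene. The strain labels of the last 2 groups name no background, so genotype and strain background cannot be told apart. Cords were perfused and dissociated enzymatically at 37°C, and myelin was removed with beads. The labels do not say whether each library is 1 animal, so the p-values measure the spread between these libraries.

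MS4A proteins cross the membrane several times, like tetraspanins, and many are partners or modifiers of immune receptors. Ms4a1 encodes CD20 of B cells and Ms4a2 the beta chain of the high-affinity IgE receptor. MS4A4A associates with Dectin-1 in macrophages, and the human MS4A4A/MS4A6A locus is linked to soluble TREM2. Ms4a7 is a widely used marker of macrophages at the borders of the nervous system, and Ms4a4b is a gene of T and NK cells.

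All 19 Ms4a symbols lay in 1 stretch of 678.6 kb of chromosome 19 (GRCm38, GENCODE vM21), and the 7 members spanned 283.8 kb of it. In chromosomal order they were Ms4a7 (chr19:11321039-11336146, minus strand), Ms4a4a (chr19:11375523-11392790, plus), Ms4a4c (chr19:11404770-11427246, plus), Ms4a4b (chr19:11443553-11467055, plus), Ms4a6c (chr19:11469366-11482192, plus), Ms4a6b (chr19:11516512-11531256, plus) and Ms4a6d (chr19:11586604-11604849, minus). All 7 are annotated as protein coding. The neighbours Ms4a6c and Ms4a6b shared 192 identical bases over their aligned 300-base promoters, with 1 unbroken run of 48. Ms4a4c and Ms4a4b shared 227, with a longest run of 20. In the other pairs of the 6 members with a RefSeq promoter (Ms4a6d was not among them) 142 to 159 bases were identical and no shared run exceeded 9. The 4 promoters below (RefSeq, GRCm38.p6, 250 bases before to 50 bases after the RefSeq gene start, plus strand; for Ms4a6b and Ms4a4c that start lies inside the GENCODE gene given above) are shown because these similar pairs differed in the cells that held their transcripts. Capitals mark runs of at least 15 bases that both promoters of a pair share. They lie at chr19:11469118-11469417 (Ms4a6c), chr19:11518309-11518608 (Ms4a6b), chr19:11407411-11407710 (Ms4a4c) and chr19:11443308-11443607 (Ms4a4b).
Ms4a6c: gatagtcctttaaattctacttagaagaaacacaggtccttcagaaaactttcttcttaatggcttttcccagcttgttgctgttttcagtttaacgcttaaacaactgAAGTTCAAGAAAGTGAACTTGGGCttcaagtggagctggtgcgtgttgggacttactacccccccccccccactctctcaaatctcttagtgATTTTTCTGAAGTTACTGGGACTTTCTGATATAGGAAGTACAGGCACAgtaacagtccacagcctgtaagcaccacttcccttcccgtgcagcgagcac
Ms4a6b: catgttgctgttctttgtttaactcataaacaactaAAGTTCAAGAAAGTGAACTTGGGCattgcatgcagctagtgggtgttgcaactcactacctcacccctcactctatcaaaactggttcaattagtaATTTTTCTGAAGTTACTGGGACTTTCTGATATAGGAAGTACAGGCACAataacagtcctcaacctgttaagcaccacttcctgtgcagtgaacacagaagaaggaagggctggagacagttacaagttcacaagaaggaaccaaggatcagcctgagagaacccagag
Ms4a4c: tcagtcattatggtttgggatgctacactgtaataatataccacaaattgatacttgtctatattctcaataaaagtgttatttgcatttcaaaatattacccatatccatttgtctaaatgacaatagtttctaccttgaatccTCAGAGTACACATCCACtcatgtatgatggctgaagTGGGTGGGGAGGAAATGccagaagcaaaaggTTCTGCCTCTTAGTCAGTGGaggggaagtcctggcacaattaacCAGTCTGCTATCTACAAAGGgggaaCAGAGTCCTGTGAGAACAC
Ms4a4b: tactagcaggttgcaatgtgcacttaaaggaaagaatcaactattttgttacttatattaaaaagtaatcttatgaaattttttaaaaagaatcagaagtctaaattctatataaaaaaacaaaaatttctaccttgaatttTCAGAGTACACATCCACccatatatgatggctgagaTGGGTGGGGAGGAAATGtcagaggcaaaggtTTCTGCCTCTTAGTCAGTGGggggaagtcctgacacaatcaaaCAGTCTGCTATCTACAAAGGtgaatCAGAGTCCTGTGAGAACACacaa
Transcripts of close members share sequence too. The longest identical stretch was 127 bases for Ms4a4c and Ms4a4b, 96 for Ms4a6c and Ms4a6b, 81 for Ms4a6d and Ms4a6b and 44 for Ms4a6d and Ms4a6c, against at most 19 in all other pairs. The 3 longest stretches lay at least 228 bases from the nearest transcript end, and reads that fall in them cannot be assigned to 1 gene.

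After filters, 89756 of 108892 barcodes remained. Libraries held 28819852 to 141204910 UMIs, and 1504 barcodes occurred in more than 1 library, at most 0.474% of the smaller library of a pair. Clec7a, the deleted gene, gave 57449 to 101134 UMIs per library in SOD1G93A, 755 to 1767 in nTg, 33 to 110 in Clec7a-KO and 74 to 240 in SOD1G93A/Clec7a-KO, as the labels say. Clusters were named from fixed markers that hold no Ms4a gene. Microglia (50535 cells, 8 clusters) had all 12 of their markers detected. Border-associated macrophages (238 cells), T cells (459), NK cells (167), B cells (46), monocytes (54) and neutrophils (121) were resolved by clustering the leukocytes again. The monocyte cluster was led by Plac8 and Ccr2 but also by the antigen-presentation genes H2-Eb1 and H2-Aa and by Cd209a, a dendritic cell gene. Xist, which is transcribed from the inactive X chromosome, set 4 libraries apart: it was at 489 to 1717 CPM in microglia of nTg replicates 1 and 3, Clec7a-KO replicate 3 and SOD1G93A/Clec7a-KO replicate 4, and at most 3.65 in the other 10. No SOD1G93A library was among them, and the labels give no sex. A class was not called beyond its markers, and the 6066 cells with mixed or no leading markers stayed unnamed.

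Ms4a7 was highest in border-associated macrophages, at 1056 CPM (UMIs of the gene scaled to a total of 1000000 over the class, 95% interval 1004 to 1111). Microglia followed at 50.5 CPM, a ratio of 20.9, and NK cells at 4.63. As for all members, the microglial value pools groups with and without the transgene. By library it ranged from 0.378 to 83.4 CPM (n = 14), so the ratio and the second place hold for this mix of groups only. Over the 12 libraries with at least 10 such macrophages the mean was 1070 ± 194 CPM (SD), from 698 to 1291. With doublets kept this mean was 639 CPM. In monocytes no Ms4a7 UMI was seen, which allows up to 8.37 CPM. Because microglia were so many, they still held 92.1% of the 33882 Ms4a7 UMIs in all cells. Ms4a4a, the Dectin-1 partner, was also highest in border-associated macrophages, at a far lower level: 22.3 CPM in border-associated macrophages (32 UMIs), 4.54 in monocytes (2 UMIs) and 0.15 in microglia (93 UMIs).

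**Figure D1:**
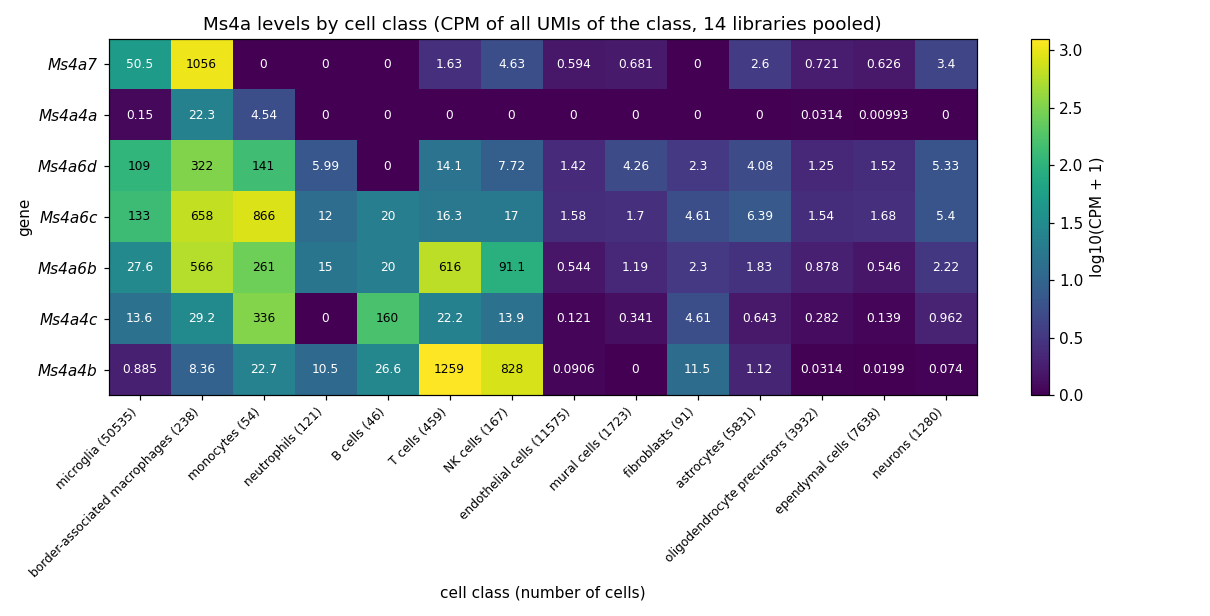
Pooled level of each member (rows) in each cell class (columns, number of cells in brackets); the printed number is CPM and the colour is log10(CPM + 1). Ms4a7 stands out in border-associated macrophages (1056 CPM) and Ms4a4b in T cells (1259 CPM) and NK cells (828 CPM).

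Ms4a6d, Ms4a6c and Ms4a6b were myeloid genes shared by several classes. Ms4a6d stood at 322 CPM in border-associated macrophages, 141 in monocytes and 109 in microglia. Ms4a6c stood at 866 CPM in the 54 monocytes, 658 in border-associated macrophages and 133 in microglia. No library held 10 monocytes, and their level lay within the range over libraries in border-associated macrophages (266 to 918); with doublets kept these macrophages came first. The mean over libraries in border-associated macrophages was 318 ± 98.5 CPM for Ms4a6d and 628 ± 191 for Ms4a6c (SD, n = 12). Ms4a6b crossed into lymphocytes: T cells held 616 CPM and border-associated macrophages 566, which over libraries was 596 ± 120 against 526 ± 135 (n = 12 each), so these neighbours in the order did not differ beyond their spread. Monocytes (261 CPM), NK cells (91.1) and microglia (27.6) followed for Ms4a6b.

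The pair Ms4a4c and Ms4a4b, with the most alike promoters, differed in their cells. Ms4a4c was at 336 CPM in monocytes and 160 in B cells, and at 29.2 in border-associated macrophages, 22.2 in T cells and 13.6 in microglia. These 54 monocytes had no library with 10 cells and the 46 B cells had 2, and with doublets kept border-associated macrophages came first for Ms4a4c. Ms4a4b was at 1259 CPM in T cells and 828 in NK cells, with B cells next at 26.6. Over libraries, T cells held 1271 ± 349 CPM of Ms4a4b (n = 12) and NK cells 776 ± 327 (n = 7), ranges that overlap. Classes outside the leukocytes held low levels: endothelial cells were at or below 1.58 CPM for each member, astrocytes at 6.39 for Ms4a6c, 4.08 for Ms4a6d, 2.6 for Ms4a7 and 1.12 for Ms4a4b (95% interval 0.783 to 1.56, which covers the 0.885 of microglia), and neurons at 5.4 for Ms4a6c and 5.33 for Ms4a6d. Fibroblasts held 11.5 CPM of Ms4a4b, on 5 UMIs. These levels pool all groups. By library, astrocytes ranged from 0 to 63.2 CPM for Ms4a6c and from 0 to 34.4 for Ms4a7. After thinning each cell to 2000 UMIs, 3.92% of SOD1G93A/Clec7a-KO and 1.12% of SOD1G93A astrocytes had an Ms4a6c UMI. The shares were 0.12% in Clec7a-KO and 0.111% in nTg. The source of these UMIs was not tested.

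Across 34 clusters of at least 50 cells, the level of Ms4a6d was most like that of Ms4a6c among the members (Pearson r = 0.95 of log2(CPM + 5)), while Ms4a7 and Ms4a4b were unrelated (r = -0.07). These clusters share libraries and differ in depth, so the correlations are descriptions. Outside the family, the closest genes to Ms4a7 were Siglec1 (r = 0.95), the gene of a sialic acid receptor of macrophages, Tmem106a (0.91) and Pf4 (0.9). Ms4a4a was closest to Clec10a, Cbr2 and Cd163 (0.97 each), all used here as markers of border-associated macrophages. Ms4a6d was closest to the costimulatory ligand gene Cd86 (0.96), Slamf9 (0.95) and Ccl9 (0.94), and Ms4a6c to Ifi207 (0.95), Msr1 (0.93) and Scimp (0.92). Ms4a6b was closest to Ifi209 (0.96), Epsti1 (0.95) and AI662270 (0.92), and Ms4a4c to Phf11b (0.85), Slamf7 (0.83) and Ifi209 (0.82). Ms4a4b was closest to Nkg7 (0.99), Cd3g (0.98) and Ptprcap (0.98), genes of cytotoxic cells and T cells.

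In microglia, 5 members were higher with the transgene in both Clec7a backgrounds with no overlap of libraries: Ms4a7, Ms4a4a, Ms4a6d, Ms4a6c and Ms4a4c. Of the 16639 genes tested, 18% were higher without overlap in both backgrounds (29.4% in SOD1G93A against nTg and 21.2% in SOD1G93A/Clec7a-KO against Clec7a-KO). Ms4a4a, almost absent from microglia (counts below), was not among the genes tested, so these shares do not cover it. Ms4a6b overlapped in all groups. Microglia gave 10683289 to 100237490 UMIs per library, and the microglial values by library that follow are CPM scaled with TMM factors. Levels by cell class and by cluster, in all paragraphs, are CPM of the total UMIs without such factors. Ms4a7 stood at 0.759, 0.834 and 1.47 CPM in the nTg libraries (16 to 25 UMIs each) and at 1.16, 0.315, 0.827 and 0.623 in Clec7a-KO (8 to 40 UMIs). It stood at 35.9, 88.6 and 80.5 in SOD1G93A (1986 to 7540 UMIs) and at 45.8, 102, 100 and 69.3 in SOD1G93A/Clec7a-KO (1206 to 6052 UMIs). All 7 libraries with the transgene lay above all 7 without it, and the lowest of the transgenic libraries was replicate 1 of SOD1G93A.

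Ms4a7 was 6.72 ± 0.44 (SE) higher on the log2 scale in SOD1G93A/Clec7a-KO than in Clec7a-KO (edgeR quasi-likelihood test over 16639 genes, adjusted p = 7.9e-08). The group means differed 108-fold there and 66.9-fold between SOD1G93A and nTg, where the fitted log2 difference was 6.14. In a bulk sum, more cells with the transcript and more transcript per cell cannot be told apart. The share of cells with a UMI at low depth rises with both, so it cannot separate them either. It was counted after thinning each cell to 2000 UMIs. Then 8.81% ± 2.5 (SD, n = 4) of SOD1G93A/Clec7a-KO and 8.04% ± 2.98 (n = 3) of SOD1G93A microglia had an Ms4a7 UMI, against 0.09% in Clec7a-KO and 0.142% in nTg. Unthinned, the shares were 24.7%, 26.7%, 0.241% and 0.47%. The thinned shares in endothelial cells of the same groups were 0.245%, 0.152%, 0.0395% and 0%, and in astrocytes 1.11% (0% to 3.17% over libraries), 0.625%, 0% and 0.0565%. Thinning left out 302, 298, 258 and 176 microglia, and median depths were 10593, 14512, 7506 and 9236.5 UMIs in microglia 4903, 5763.5, 7443.5 and 7857 in endothelial cells and 3034, 3840, 4400 and 5528 in astrocytes.

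Ms4a6c ranged from 20.8 to 30.4 CPM in nTg, from 25.5 to 30.7 in Clec7a-KO, from 150 to 200 in SOD1G93A and from 171 to 213 in SOD1G93A/Clec7a-KO. The log2 difference between SOD1G93A/Clec7a-KO and Clec7a-KO was 2.85 ± 0.16 (edgeR, adjusted p = 3.4e-08). Ms4a6d had a higher floor: 42.6, 79.9 and 64 CPM in nTg, 58.7 to 77.3 in Clec7a-KO, 121, 146 and 143 in SOD1G93A and 117, 125, 183 and 179 in SOD1G93A/Clec7a-KO. Its log2 difference was 1.21 ± 0.20 (edgeR, adjusted p = 0.000209). Ms4a4c stood at 2.7 to 4.72 CPM in nTg, 4.36 to 6.05 in Clec7a-KO, 13.4 to 21.5 in SOD1G93A and 12.7 to 25.4 in SOD1G93A/Clec7a-KO, and its log2 difference was 1.96 ± 0.25 (edgeR, adjusted p = 2.5e-05). Between SOD1G93A and nTg the fitted differences were 2.92 for Ms4a6c, 1.14 for Ms4a6d and 2.22 for Ms4a4c. Without the 4 libraries with Xist, a choice made after the data were seen, the differences between SOD1G93A/Clec7a-KO and Clec7a-KO were 6.87 for Ms4a7, 2.84 for Ms4a6c, 1.12 for Ms4a6d and 1.87 for Ms4a4c, all called (edgeR).

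Ms4a6b, the neighbour of Ms4a6c, lay at 26.5 to 32.2 CPM in nTg, 27.1 to 37.5 in Clec7a-KO, 27.1 to 31.2 in SOD1G93A and 28.3 to 36.9 in SOD1G93A/Clec7a-KO, so all groups overlapped. The log2 difference between SOD1G93A/Clec7a-KO and Clec7a-KO was -0.04 ± 0.13 (edgeR, adjusted p = 0.833). This value depends on the scaling: with library totals in place of TMM factors, chosen after the data were seen, the median of all genes moved from 0 to -0.51 and Ms4a6b to -0.55 (edgeR, adjusted p = 0.00101), while Ms4a7 was at 6.17, Ms4a6c at 2.33, Ms4a4c at 1.42 and Ms4a6d at 0.69 (adjusted p = 0.00308). Ms4a4b, at 1.14, was no longer called. The thinned share of microglia with an Ms4a6b UMI, which follows the total, was 7.11% in nTg, 7.33% in Clec7a-KO, 5.18% in SOD1G93A and 4.98% in SOD1G93A/Clec7a-KO.

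**Figure D2:**
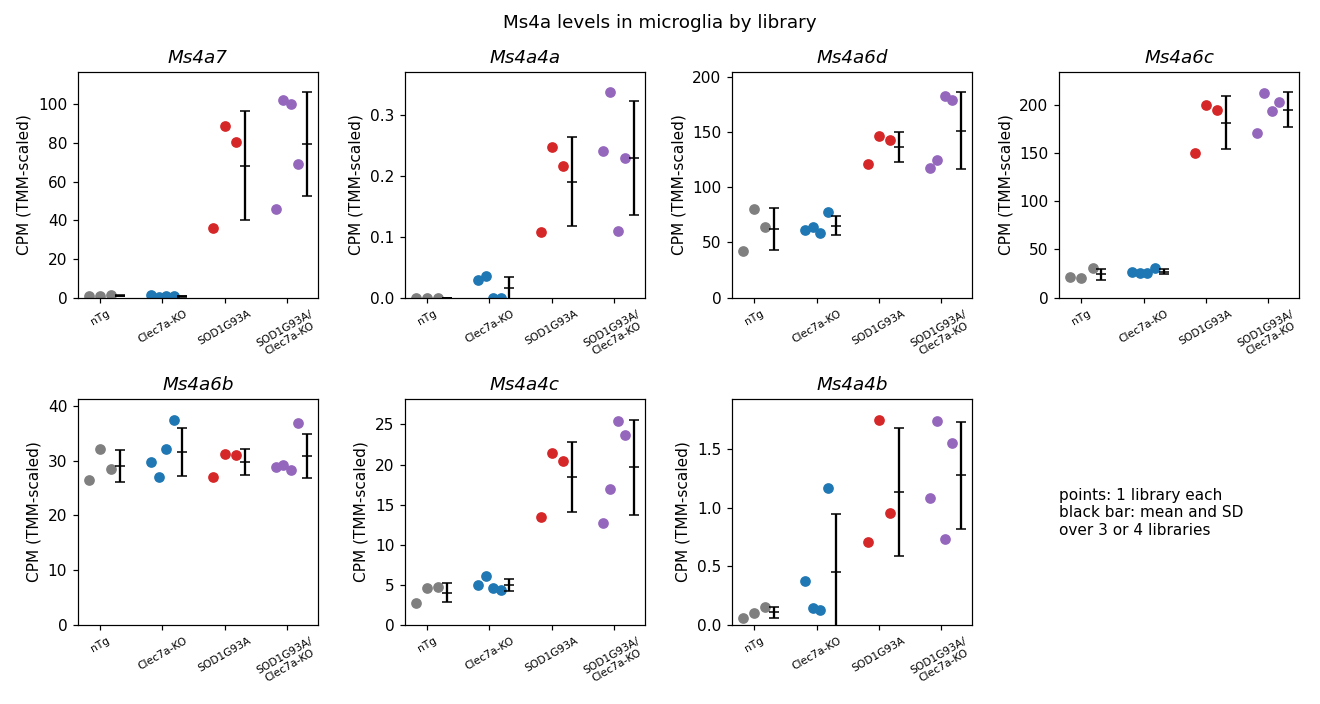
TMM-scaled CPM of each member in microglia, 1 point per library, 4 groups on the x axis, with the group mean and SD as a black bar (cut at 0). Ms4a7 is at most 1.47 CPM in the 7 libraries without the transgene and at least 35.9 in the 7 with it; Ms4a6b overlaps in all groups.

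Ms4a4a was almost absent from microglia and failed the filter on low counts. It had 0 UMIs in the 3 nTg libraries, 1 UMI in each of 2 Clec7a-KO libraries and 0 in the other 2, 6 to 21 UMIs in SOD1G93A and 4 to 20 in SOD1G93A/Clec7a-KO. No fold is given at these counts. Ms4a4b, with 547 UMIs over all microglia, lay at 0.0608, 0.104 and 0.155 CPM in nTg, 0.378, 0.14, 0.127 and 1.17 in Clec7a-KO, 0.704, 1.75 and 0.953 in SOD1G93A and 1.08, 1.74, 0.728 and 1.55 in SOD1G93A/Clec7a-KO, so the last group overlapped Clec7a-KO. Its log2 difference between those groups was 1.63 ± 0.56 (edgeR, adjusted p = 0.0268), and the call was lost without any one of 5 libraries (replicates 1, 2 and 3 of Clec7a-KO with adjusted p = 0.0651, 0.087 and 0.0746, and replicates 2 and 4 of SOD1G93A/Clec7a-KO with 0.0745 and 0.0504). It was also lost with library totals in place of TMM factors (1.14, adjusted p = 0.0773) and without the 4 libraries with Xist (1.32, adjusted p = 0.149). Between SOD1G93A and nTg its fitted difference was 3.54.

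T cell markers in microglia were read beside Ms4a4b. The 10 T cell markers summed to 1.62 to 4.34 CPM in nTg microglia, 1.46 to 7.78 in Clec7a-KO, 7.18 to 8.9 in SOD1G93A and 9.8 to 13.3 in SOD1G93A/Clec7a-KO. Of the 10, 3 (Cd5, Cd3d and Lat) were higher in SOD1G93A/Clec7a-KO than in Clec7a-KO without overlap, as were 21.2% of the genes tested. In SOD1G93A over nTg, 2 of 10 were (Cd5 and Cd4), beside 29.4% of the genes tested. The counts of T and NK cell markers lie near or below these shares, so they are no result about those lists. Cd5 alone was at 1.02 ± 0.431 CPM in Clec7a-KO and 6.15 ± 1.28 in SOD1G93A/Clec7a-KO. Without Cd5 the sums were 0.834 to 3.18 CPM in nTg, 0.805 to 6.15 in Clec7a-KO, 2.57 to 3.62 in SOD1G93A and 3.91 to 7.19 in SOD1G93A/Clec7a-KO. Groups with and without the transgene then overlapped within each Clec7a background, while SOD1G93A/Clec7a-KO lay above SOD1G93A and nTg. Of 8 NK cell markers, Il2rb was higher without overlap in both transgene contrasts (0.0558 ± 0.0701 CPM in Clec7a-KO and 0.392 ± 0.288 in SOD1G93A/Clec7a-KO) and Xcl1 in SOD1G93A over nTg, and the list summed to 2.71 to 14 CPM with overlap of all groups. Of the 547 Ms4a4b UMIs, 226 lay in the cluster of 1187 cycling microglia led by Mki67, and 181 of these in 37 cells with at least 2 T cell markers. The markers summed to 42.4 CPM in that cluster and to 2.11 to 8.99 in the others. Without that cluster the Ms4a4b difference was 2.21 (edgeR, adjusted p = 0.0018). The part of T and NK cell RNA in the difference that remained was not tested.

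Of all 16639 genes, 46.9% were called between SOD1G93A/Clec7a-KO and Clec7a-KO (25.8% as higher and 21.1% as lower, adjusted p under 0.05), beside 5 of the 6 members tested, all higher. A gene passes the filter on low counts through the group in which it is high, so this count is no support for a change of the family. Between SOD1G93A and nTg, 33.3% of genes were called. The median log2 difference of the 6 members between SOD1G93A/Clec7a-KO and Clec7a-KO was 1.8, against 0 over all genes. This median rests on the same members that passed the filter, so it is no support for a change of the family either. Markers of border-associated macrophages in microglia summed to 68.9 to 98.7 CPM in Clec7a-KO and 78.6 to 114 in SOD1G93A/Clec7a-KO, and most of this sum was Stab1 (81.8 ± 12.7 and 70.2 ± 12.7). The other 9 markers summed to 2.79 to 5.71 CPM in nTg, 1.56 to 7.7 in Clec7a-KO, 22.3 to 32.3 in SOD1G93A and 23.5 to 38.9 in SOD1G93A/Clec7a-KO. Of the 10, 3 were higher without overlap in SOD1G93A/Clec7a-KO (Pf4 at 12.7 ± 4.44 against 1.68 ± 1.38 CPM, Siglec1 at 9.08 ± 0.889 against 0.107 ± 0.0846 and Folr2 at 5.32 ± 2.88 against 0.715 ± 0.402), beside 21.2% of the genes tested. In SOD1G93A over nTg, 4 of 10 were (Pf4, Siglec1, Folr2 and Lyve1), beside 29.4% of the genes tested. Cells with at least 2 of these markers made up 0.41% to 1.59% of microglia without the transgene and 7.42% to 19.5% with it. The Ms4a7 difference without those cells was 7.55 (edgeR, adjusted p = 1.0e-07). Of these markers, Pf4, Siglec1 and Folr2 were themselves higher with the transgene without overlap in both Clec7a backgrounds, while Stab1 was not. The part of these markers in the result was not tested. Monocyte markers summed to 1.9 to 25.9 CPM, and 0 of 8 were higher without overlap. Plac8 was lower without overlap in SOD1G93A/Clec7a-KO than in Clec7a-KO.

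In microglia no member was called with loss of Clec7a, with or without the transgene, and the libraries of the groups compared overlapped for each member. Between SOD1G93A/Clec7a-KO and SOD1G93A, where 0.018% of genes were called (3 genes, one of them Clec7a at -8.33 ± 0.45, edgeR adjusted p = 2.4e-07; 1881 genes at an unadjusted p under 0.05), no member was called. The log2 differences and their 95% intervals were 0.22 (-0.52 to 0.95) for Ms4a7, 0.14 (-0.31 to 0.59) for Ms4a6d and 0.10 (-0.23 to 0.44) for Ms4a6c. They were 0.05 (-0.25 to 0.34) for Ms4a6b, 0.09 (-0.45 to 0.62) for Ms4a4c and 0.15 (-0.94 to 1.24) for Ms4a4b. The adjusted p-values were 0.786 to 0.914. Between Clec7a-KO and nTg, where 0.03% were called (5 genes; 410 unadjusted), the intervals were -1.49 to 0.77 around -0.36 for Ms4a7, -0.38 to 0.52 for Ms4a6d, -0.17 to 0.52 for Ms4a6c, -0.18 to 0.42 for Ms4a6b and -0.25 to 0.94 for Ms4a4c. Ms4a4b differed by 2.06 (0.22 to 3.9), with an adjusted p of 1. The difference between the 2 transgene contrasts contains SOD1G93A minus nTg, so it is given for the members as a description: it was 0.58 ± 0.63 (SE) for Ms4a7 and -1.92 ± 1.01 for Ms4a4b. Over all genes, 0% were called by edgeR for this interaction (316 unadjusted, and DESeq2 called 2). With doublets kept, Ms4a7 changed sign, to 0.36 between Clec7a-KO and nTg and to -0.11 for the interaction, so these directions were not stable.

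**Figure D3:**
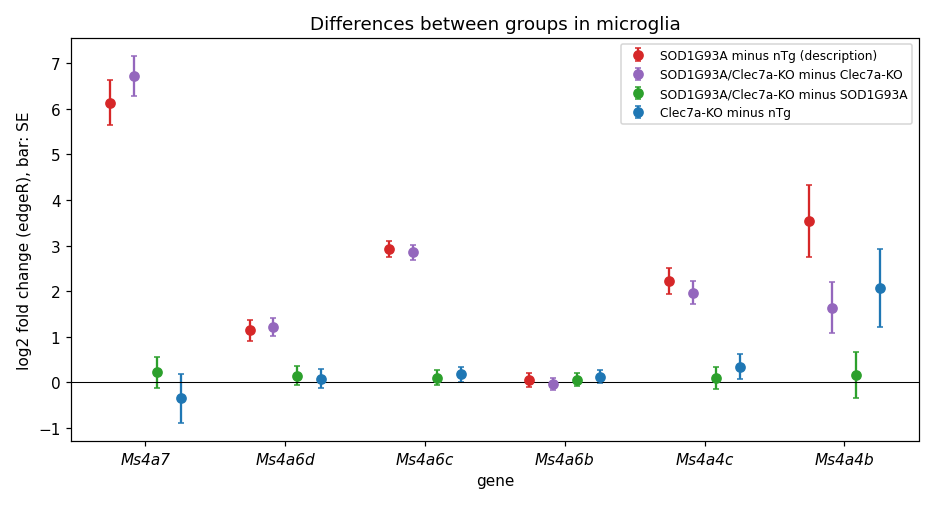
Log2 fold change in microglia (y axis, bar: SE) of the 6 members tested for 4 contrasts. Ms4a7 differs by 6.14 and 6.72 with the transgene, and the 2 contrasts of Clec7a loss lie around 0, save for Ms4a4b in Clec7a-KO minus nTg (2.06).

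Genes of the receptors that MS4A proteins are linked to were read from the same fit. Between SOD1G93A/Clec7a-KO and Clec7a-KO, 5 of 11 rose and 3 fell, where 25.8% of all genes were called higher and 21.1% lower. Those that rose were Tyrobp (1.91 ± 0.20), the adaptor of TREM2, Fcer1g (1.41 ± 0.19), the common gamma chain of Fc receptors, Trem2 (1.31 ± 0.20), Clec7a (1.05 ± 0.38), whose level in these knockout groups was 1.47 and 3.11 CPM, and the TREM2-cleaving protease gene Adam17 (0.47 ± 0.15). Adam10 (-0.52 ± 0.12), another such protease, Inpp5d (-0.61 ± 0.14), a lipid phosphatase, and the inhibitory receptor gene Cd33 (-0.38 ± 0.13) fell. The list's median was 0.11 against 0 for all genes. With Clec7a loss, only Clec7a itself was called, in both backgrounds.

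Microglial clusters differed in which members they held. They also differed in their make-up: the Gpnmb-led cluster (1377 cells, with Spp1, Fabp5 and Lgals3) held 397 SOD1G93A and 979 SOD1G93A/Clec7a-KO cells, while the Xist-led cluster held 0 SOD1G93A and 87 SOD1G93A/Clec7a-KO cells of 4398. The Xist-led cluster followed the libraries set apart by Xist, with 0.0508% to 91.6% of microglia of an nTg and 0% to 92.6% of a Clec7a-KO library. The Ifnb1- and Clec7a-led cluster held a mean of 50.4% of SOD1G93A microglia and 4.28% in SOD1G93A/Clec7a-KO, and the Postn-led cluster 5.23% and 41.7%. Clec7a, the deleted gene, is itself a leading gene of the former. Levels are therefore given within a group, pooled over its libraries. In SOD1G93A/Clec7a-KO, Ms4a7 was at 131 CPM in the Gpnmb-led cluster, 70 in the Apoe- and Cst7-led, 64.7 in the Postn- and Spp1-led, 57.6 in the Ifnb1- and Clec7a-led and 42.4 in the Mki67-led cluster. The 2 homeostatic clusters led by Crybb1 and P2ry12 held 5.99 and 7.74. In SOD1G93A the same clusters held 105, 67.9, 46.5, 71.6, 41.6, 6.52 and 3.92 CPM. By library, the Gpnmb-led cluster of SOD1G93A (86.1 and 111 CPM) lay within the range of the Postn-led cluster (22.5 to 112) and within 1 SD of the mean of the Apoe-led cluster (81.2 ± 36.6, n = 3), so the pooled order of the clusters outside the homeostatic ones is not beyond the spread there. In both groups the homeostatic clusters were lowest. In nTg, Ms4a7 was at 0 in both Crybb1-led clusters and at 0.534 CPM in the Xist-led homeostatic cluster.

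Ms4a6b in SOD1G93A/Clec7a-KO was at 13.1 CPM in the Gpnmb-led cluster and 20.9 in the Postn-led cluster. It was at 27.3 in the Apoe-led and 25.7 and 41.9 in the Crybb1-led clusters. In SOD1G93A these values were 15.2, 17.8, 31, 28.6 and 32.9. By library, the Gpnmb-led cluster of SOD1G93A (11.1 to 15.8 CPM) overlapped the Postn-led cluster (14.6 to 23.9). In SOD1G93A/Clec7a-KO the ranges were 11 to 14.1 and 18.8 to 25.9. Ms4a4c was at 7.23 CPM in the Gpnmb-led cluster of SOD1G93A/Clec7a-KO, against 15.5 in the Apoe-led and 12.4 and 8.33 in the Crybb1-led clusters. In the Ifnb1-led cluster it ranged from 17.4 to 68.7 over 3 libraries. Ms4a6c in SOD1G93A/Clec7a-KO was at 137 CPM in the Gpnmb-led, 174 in the Apoe-led and 86 and 85.4 in the Crybb1-led clusters, and Ms4a6d at 122, 114, 79.2 and 78.8. In nTg, Ms4a6c was at 24 and 23.2 CPM in the Crybb1-led clusters and at 26.6 in the Xist-led cluster.

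Thinned to 2000 UMIs, 19.1% of cells of the Gpnmb-led cluster had an Ms4a7 UMI, against 9.65% in the Apoe-led cluster, where nearly all cells also came from transgenic libraries. The Gpnmb-led cluster was found with the transgene only, save for 1 cell in Clec7a-KO. Ms4a7 there was at 86.1 and 111 CPM in 2 SOD1G93A libraries and at 154 ± 50.8 (SD) in 3 SOD1G93A/Clec7a-KO libraries, the libraries with at least 50 such cells. The groups were not tested against each other within clusters.

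Within the larger homeostatic cluster (9702 cells), levels by library, per total UMIs, were read for 4 members and not tested. Ms4a6c was at 15.7 and 24.9 CPM in 2 nTg libraries and at 29.2 ± 0.642 (SD, n = 3) in Clec7a-KO, against 77.5 ± 3.29 (n = 3) in SOD1G93A and 83.4 ± 6.01 (n = 4) in SOD1G93A/Clec7a-KO. Ms4a7 was at 0 in 1102 nTg cells, which allows up to 0.393 CPM, at 0.26 ± 0.196 in Clec7a-KO, at 7.01 ± 3.43 in SOD1G93A and at 6.51 ± 3.05 in SOD1G93A/Clec7a-KO. Ms4a6d there was at 32.8 and 91.9 CPM in 2 nTg libraries, 73.8 ± 2.54 in Clec7a-KO, 81 ± 0.795 in SOD1G93A and 86 ± 22.4 in SOD1G93A/Clec7a-KO. Ms4a6b was at 37.6 and 39.4 CPM in nTg, 33.9 ± 4.61 in Clec7a-KO, 28.7 ± 1.94 in SOD1G93A and 27.2 ± 5.52 in SOD1G93A/Clec7a-KO, on the scale of library totals, on which Ms4a6b was also lower in all microglia of SOD1G93A/Clec7a-KO than of Clec7a-KO. In nTg, 41 of 60 Ms4a7 UMIs lay in the Apoe- and Ifnb1-led clusters, which held 0.463% and 1.07% of cells, and 18 in the Xist-led cluster. In Clec7a-KO these 2 clusters held 12 UMIs each of 70, the Postn-led cluster 12, and the 3 homeostatic clusters 10, 22 and 1. The 22 UMIs were uneven between libraries: that cluster ranged from 0 to 1.84 CPM (0.612 ± 1.06, SD) over 3 libraries with at least 50 such cells.

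**Figure D4:**
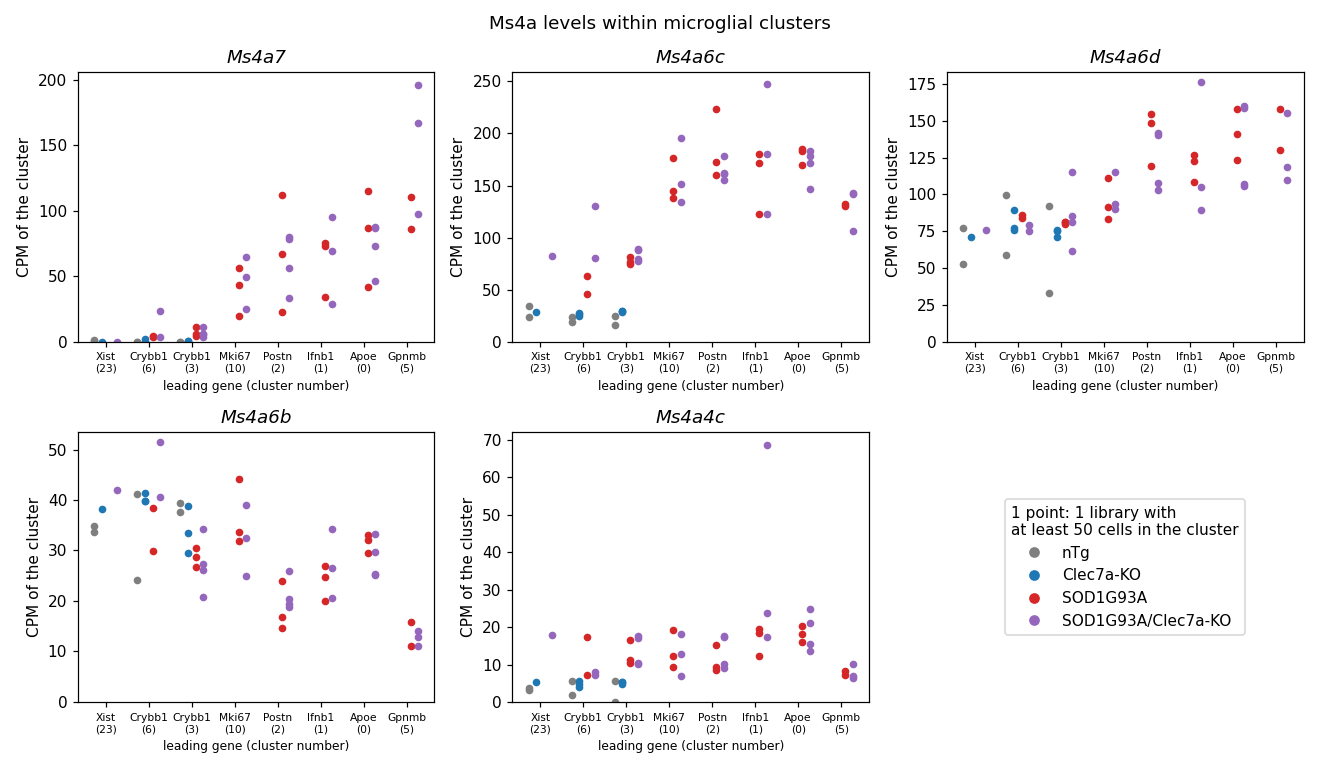
CPM of 5 members in each microglial cluster (x axis: leading gene and cluster number), 1 point per library with at least 50 cells, coloured by group. Ms4a7 is high in the Gpnmb-led cluster. Ms4a6b is low there, but its SOD1G93A libraries overlap those of the Postn-led cluster. Ms4a6c in the Crybb1-led cluster 3 is higher in libraries with the transgene.

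In border-associated macrophages no member was called in the contrasts tested. Ms4a7 was at 698 and 883 CPM in nTg, at 938, 1232 and 1236 in Clec7a-KO, at 1250, 1146 and 1103 in SOD1G93A and at 815, 1045, 1197 and 1291 in SOD1G93A/Clec7a-KO, so Clec7a-KO and SOD1G93A/Clec7a-KO overlapped. Of 2073 genes tested, 0.0965% were called between those 2 groups, and none of the 4 members with enough counts. The log2 differences were -0.09 (95% interval -0.65 to 0.47) for Ms4a7, 0.23 (-0.46 to 0.91) for Ms4a6d, 0.43 (-0.25 to 1.11) for Ms4a6c and 0.34 (-0.21 to 0.9) for Ms4a6b. The difference between cell classes was not tested. Between SOD1G93A and nTg, given as a description, the fitted differences were 0.51 for Ms4a7, 0.67 for Ms4a6d, 0.76 for Ms4a6c and 0.57 for Ms4a6b. These fits leave out nTg replicate 3 (6 such cells), where Ms4a7 was at 1376 CPM, above all SOD1G93A libraries, and Clec7a-KO replicate 2 (4 cells, 735 CPM). With Clec7a loss on the transgene (0.0482% of genes called), Ms4a6b was at 574, 709 and 834 CPM in SOD1G93A and at 547, 566, 416 and 539 in SOD1G93A/Clec7a-KO. All 3 SOD1G93A libraries lay above all 4 of SOD1G93A/Clec7a-KO, as for 3.28% of the genes tested, and the difference was -0.43 (-0.96 to 0.09) and was not called. Between Clec7a-KO and nTg (0.0482% called) Ms4a7 differed by 0.52 (-0.16 to 1.2), and by -0.54 with doublets kept, so its direction was not stable.

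In T cells, Ms4a4b was at 1562 and 2010 CPM in nTg, at 1389, 1251 and 961 in Clec7a-KO, at 1455, 1179 and 1168 in SOD1G93A and at 1358, 1240, 1126 and 555 in SOD1G93A/Clec7a-KO. Replicate 1 of nTg (8 cells, 1558 CPM) and replicate 4 of Clec7a-KO (7 cells, 1057 CPM) were left out. Both nTg libraries lay above the 3 of Clec7a-KO, as for 12.3% of the genes tested. Between Clec7a-KO and nTg, where 0% of 2835 genes were called (edgeR; 141 unadjusted), the log2 difference was -0.48 (-1.22 to 0.25). Ms4a4b differed by -0.19 (-0.81 to 0.42) between SOD1G93A/Clec7a-KO and Clec7a-KO (0.6% called; with doublets kept -0.89, edgeR adjusted p = 0.0228) and by -0.17 (-0.78 to 0.43) between SOD1G93A/Clec7a-KO and SOD1G93A (0% called; 194 unadjusted). For Ms4a6b in T cells the 3 intervals were -0.77 to 0.4, -0.71 to 0.43 and, for Clec7a-KO minus nTg, -0.75 to 0.67. In NK cells, Ms4a4b was at 767, 903 and 814 CPM in SOD1G93A and at 721, 1329 and 225 in SOD1G93A/Clec7a-KO, a difference of -0.09 (-1.11 to 0.94; edgeR called 0% of 1055 genes, 43 unadjusted).

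**Figure D5:**
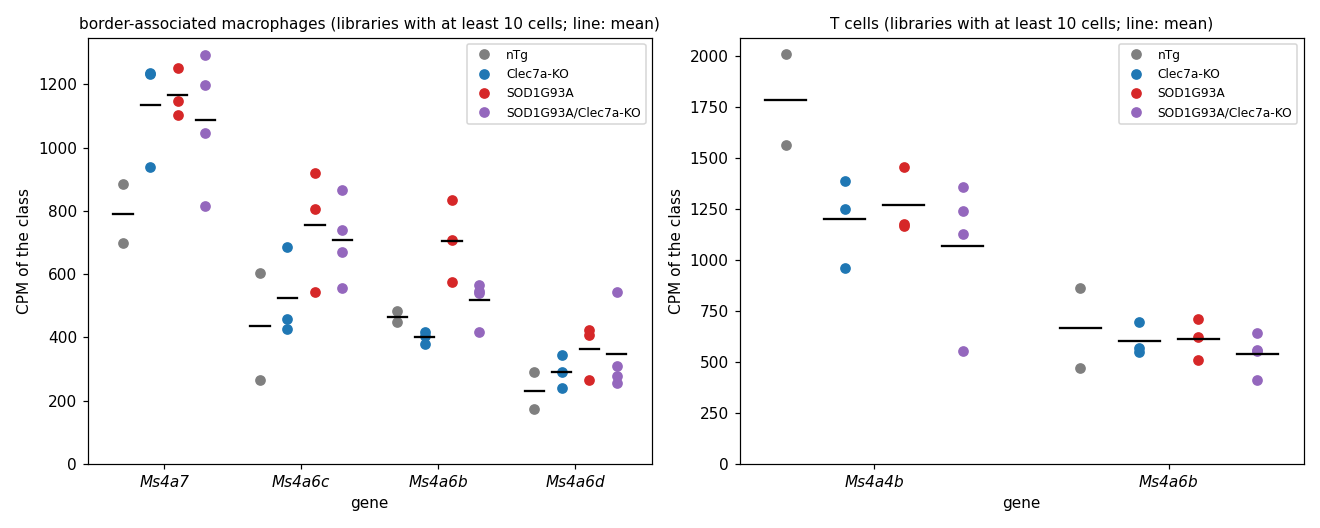
CPM of the tested members in border-associated macrophages (left) and T cells (right), 1 point per library with at least 10 cells of the class, coloured by group, with a line at the group mean. Ms4a7 in border-associated macrophages overlaps between Clec7a-KO and SOD1G93A/Clec7a-KO, and Ms4a4b in T cells is at 1562 and 2010 CPM in nTg.

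The other 12 Ms4a genes were sparse. Ms4a1 marked the B cells (1452 CPM, 218 UMIs), and Ms4a4d stood at 230 CPM in fibroblasts (100 UMIs). Ms4a14 was at 32.7 CPM in border-associated macrophages (47 UMIs) and had 509 UMIs in microglia. Ms4a8a was at 36.3 CPM in monocytes (16 UMIs) and Ms4a3, a gene of granulocyte precursors, at 7.48 in neutrophils (5 UMIs), while 94.9% of its 292 UMIs lay in microglia, 251 UMIs in replicate 1 of Clec7a-KO and 26 in replicate 3 of nTg. Ms4a2 gave 37 UMIs in microglia, 36 of them in replicate 3 of nTg, where the mast cell markers summed to 18.7 CPM, against 0.415 to 1.41 in the other libraries, and Ms4a10, Ms4a13 and Ms4a18 gave 0. The relatives Tmem176a and Tmem176b were not restricted to leukocytes: microglia held 563 and 726 CPM, border-associated macrophages 512 and 997, and oligodendrocyte precursors 476 and 893.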

How the data were processed

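The deposited files hold raw UMI counts per gene and barcode, 1 matrix per library, not normalized. Per the submitters' processing notes, Cell Ranger, Seurat and DESeq2 were used with build mm10, and per the file headers the matrix software version is 3.0.2. The counting of shared reads and the cell calling are not given in the sources used here.

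Barcodes with at least 500 genes and 1000 UMIs and at most 15% mitochondrial UMIs were kept, and doublets were removed by score (7046). Clusters (scanpy 1.11.5, Leiden resolution 1.0, Ms4a genes left out) were named from fixed markers. The second clustering of leukocytes and its thresholds were chosen after the data were seen. For each class, the UMIs of a library were added up over its cells, and these sums were compared with edgeR 4.0.16 (R 4.3.3; TMM, filterByExpr, quasi-likelihood, Benjamini-Hochberg over all genes tested, threshold 0.05, two-sided). Classes needed at least 10 cells in a library, and all libraries kept for a class entered the same fit. The fit was tested on simulated data. Pooled CPM have exact Poisson intervals (95%), which cover counting error only, as do upper limits for 0 UMIs.

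The members, gene lists and tests were chosen with earlier results of these data known. Named genes are the members, every other Ms4a symbol, Tmem176a and Tmem176b, 11 linked receptor genes, and for each member the 3 genes outside the family with the highest correlation over clusters (genes with at least 50 CPM in 1 cluster). The filter, normalization, DESeq2, a replicate block, library number, Leiden resolution, doublets each library left out and, after the data were seen, library totals, leaving out the Mki67-led cluster, and a term for or removal of libraries with Xist over 100 CPM were tried as alternatives.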

Additional observations from a re-analysis of the deposited data

Results flagged for a closer look

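Ms4a6b in microglia of replicate 4 of SOD1G93A/Clec7a-KO stood at 36.9 TMM-scaled CPM, apart from 28.3 to 29.2 in the other 3 libraries of its group. Its gap was 0.895 of the group's range, above the 95% critical value of Dixon's test for 4 samples. It was 1 of 21 groups of values tested this way, and chance sets about 1 in 20 apart. Replicate 4 was also the only library of its group with Xist (489 CPM) and held the fewest cells of the series (2558). Whether this bears on the value was not tested.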

How the results depend on the processing

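Of 1078 values of single genes under an alternative, 998 kept their direction and, where tested, their side of the threshold, 7 lost a call, 2 gained one and 9 levels moved by more than the spread. Another 62 differences changed sign, none of them called in either fit. With doublets kept, Ms4a7 between Clec7a-KO and nTg was 0.36 in microglia (in place of -0.36) and -0.54 in border-associated macrophages (in place of 0.52), and the interaction of Ms4a7 was -0.11 (in place of 0.58). Between SOD1G93A/Clec7a-KO and Clec7a-KO, leaving out each library in turn gave 6.42 to 7.17 for Ms4a7, 2.74 to 2.91 for Ms4a6c, 1.04 to 1.32 for Ms4a6d, 1.74 to 2.13 for Ms4a4c and 1.28 to 2.43 for Ms4a4b (log2), and 4 to 5 members called. Without the 4 libraries with Xist, which leaves 1 nTg library that is assumed to vary like the other groups, 1868 genes were called between SOD1G93A and nTg in place of 5549. The genes called between SOD1G93A/Clec7a-KO and SOD1G93A (3) were 39 with DESeq2, 11 without the filter, 7 with the replicate block, 8 with library number as a covariate and 3 to 15 with 1 library left out (15 without SOD1G93A replicate 1). Between Clec7a-KO and nTg (5) they were 10 with DESeq2, 10 without the filter, 2 without the 4 libraries with Xist and 3 to 8 with 1 library left out (8 without nTg replicate 1, 3 without nTg replicate 2). For the interaction (0) they were 2 with DESeq2, 2 without the filter and 0 to 2 with 1 library left out (2 without nTg replicate 3, 1 without SOD1G93A replicate 1). No member was among the calls of the 2 contrasts of Clec7a loss in microglia in any alternative run.

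With doublets kept, 3 members were called in T cells between SOD1G93A/Clec7a-KO and Clec7a-KO (Ms4a6d, Ms4a6c and Ms4a4b), 4 of 7 members kept their leading class, Ms4a7 in border-associated macrophages was 639 CPM, and NK cells formed no class of their own. The number of members highest in the Gpnmb-led cluster with all groups pooled (2) was 4 at Leiden resolution 0.5 and 1 with doublets kept. The cause was not tested. Libraries of different numbers correlated at -0.469 to 0.483 in their deviations from group means (54 pairs, median -0.0325, 13 above 0.1). Same-numbered libraries correlated at -0.168 to 0.379 (19 pairs, median 0.112, 10 above 0.1). Since 9 of the 19 pairs were not above 0.1 and no label ties the numbers to a shared animal or day, they were not taken as pairs; the replicate block changed no call of a member in microglia (Ms4a4b 1.75, adjusted p = 0.00663 by edgeR). Without the filter on low counts Ms4a4a was called (adjusted p = 0.00424 by edgeR), on the few UMIs given above. Depth limits Ms4a4a and Ms4a4b in microglia, and the members in the small classes.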
